A study of Mus musculus with 4 samples.

Results

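Transcripts of matrix metalloproteases (MMPs) and their tissue inhibitors (TIMPs) were measured in mouse distal colon on 4 Affymetrix arrays, each from 1 mouse. The genes were Mmp2, Mmp3, Mmp7, Mmp8, Mmp9, Mmp10, Mmp13, Mmp14, Timp1 and Timp3, chosen by name, and every probe set that the platform annotation gives to 1 of these symbols was taken. This gave 17 probe sets for the 10 genes, of 34945 with 1 symbol in the deposited table. The genes, and the gene lists described below, were chosen with earlier results of these data known. Their counts beside the shares of all genes are thus a description and not a test. The groups were an Adamts12-deficient (KO) mouse given dextran sodium sulfate (DSS), a wild-type (WT) mouse given DSS, an untreated KO mouse and an untreated WT mouse, with 1 array in each group. Adamts12 is a gene of an extracellular ADAMTS protease, and DSS is a polymer that injures the colonic epithelium. DSS was given at 2% in the drinking water, for 7 days in the series text and for 8 days in the treatment protocol, with 1 day off DSS before sampling, to mice aged 8 to 10 weeks when it began. The labels give no strain, allele or part of the gene that was removed.

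MMPs are zinc endopeptidases that are made as inactive zymogens and cut collagens, other matrix proteins, chemokines and each other. TIMPs bind the active site of MMPs and block it, TIMP3 being held in the matrix and also acting on ADAM and ADAMTS proteases. In the inflamed gut, stromal cells, macrophages, neutrophils and wound-edge epithelium are known sources of MMPs, and many MMP genes respond to interleukin-1, tumour necrosis factor and the transcription factor AP-1. In tissue RNA a higher level may come from more cells of a type or from more RNA per cell, and these cannot be told apart.

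Of the 10 genes, 5 (Mmp3, Mmp7, Mmp8, Mmp10 and Mmp13) lie in 1 cluster on chromosome 9. The promoters of 8 of the 10 genes were matched in RefSeq (GRCm38.p6). The 250 bases before the annotated start are printed for Mmp3, Mmp10 and Mmp13, the cluster genes that were over 2-fold higher with DSS in both genotypes, for Mmp7, which lies in the same cluster and had another pattern, and for Timp1, an inhibitor gene that was also higher with DSS. Capitals mark TGANTCA, the 7-base AP-1 element, which is its own reverse complement, so that 1 search reads both strands.
Mmp3 (chr9:7445572-7445821, plus strand): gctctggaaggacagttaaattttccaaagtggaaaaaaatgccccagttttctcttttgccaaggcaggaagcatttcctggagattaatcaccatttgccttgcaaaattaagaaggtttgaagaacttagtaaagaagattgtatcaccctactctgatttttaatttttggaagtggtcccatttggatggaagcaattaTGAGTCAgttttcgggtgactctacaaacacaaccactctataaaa
Mmp10 (chr9:7502092-7502341, plus strand): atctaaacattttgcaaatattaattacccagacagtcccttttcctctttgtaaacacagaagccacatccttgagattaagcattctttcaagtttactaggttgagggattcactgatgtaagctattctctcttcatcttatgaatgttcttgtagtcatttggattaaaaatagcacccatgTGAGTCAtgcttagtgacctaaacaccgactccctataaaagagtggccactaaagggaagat
Mmp13 (chr9:7272264-7272513, plus strand): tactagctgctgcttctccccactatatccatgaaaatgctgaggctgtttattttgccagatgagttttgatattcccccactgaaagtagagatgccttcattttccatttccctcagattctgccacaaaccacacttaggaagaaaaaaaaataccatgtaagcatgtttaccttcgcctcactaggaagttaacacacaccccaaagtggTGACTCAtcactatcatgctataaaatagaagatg
Mmp7 (chr9:7691840-7692089, plus strand): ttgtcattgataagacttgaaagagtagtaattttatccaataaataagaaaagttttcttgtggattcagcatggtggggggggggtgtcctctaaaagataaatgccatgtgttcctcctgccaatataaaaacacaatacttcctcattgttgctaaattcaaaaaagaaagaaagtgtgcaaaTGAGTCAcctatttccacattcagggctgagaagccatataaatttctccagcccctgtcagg
Timp1 (chrX:20869916-20870165, plus strand): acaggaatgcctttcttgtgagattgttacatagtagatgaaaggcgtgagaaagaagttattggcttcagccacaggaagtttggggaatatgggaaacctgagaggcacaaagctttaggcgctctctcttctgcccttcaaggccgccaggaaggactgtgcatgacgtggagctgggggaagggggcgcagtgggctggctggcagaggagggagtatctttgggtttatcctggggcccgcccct
The element was found once in each of the Mmp3, Mmp10, Mmp13 and Mmp7 windows and in no printed base of the Timp1 window. Its first base lay 46 bases before the start in Mmp3, 63 in Mmp10, 35 in Mmp13 and 63 in Mmp7. A second Mmp7 window, at another annotated start, and the Mmp8, Mmp14 and Timp3 windows held no match. Of 32851 promoters searched over the same length, 6.75% held at least 1 match. A match is a description of these letters and not a measured binding site, and Mmp7 held it while having a different pattern over the arrays.

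Values are on the log2 scale as deposited, so that a difference of 1 is 2-fold. A gene was represented by its probe set with the highest mean among those above their array's median on at least 1 array, and 12189 genes passed this filter, including all 10 described here. Mmp3, Mmp8, Mmp9, Mmp10 and Mmp13 passed it through DSS arrays alone, so a difference in that direction was built into their passing. Values at or below 1.39, the top value that 9 Y-linked probe sets reached here, were taken as not above background, since Xist lay between 9.68 and 10.06 on all 4 arrays. No value of the 10 genes was that low. The Adamts12 probe set above that limit (1439827_at) had log2 values of 1.41 in KO DSS, 2.18 in WT DSS, 1.42 in untreated KO and 2.18 in untreated WT colon, and it checks the labels only weakly because it was dim. All 15 colon epithelium markers passed the filter. The untreated KO array stood apart in gut position markers. Against the untreated WT array, 8 of 10 small intestine and proximal colon markers that passed the filter were at least 2-fold higher, where 3.43% of all genes were. Of 11 posterior Hox genes that passed it, 7 were at least 2-fold lower, where 5.98% of all genes were. Slc10a2, Slc51a and Osr2 passed the filter through the untreated KO array alone, and Hoxd11 through the untreated WT array alone. A higher value on that array was thus built into their passing. The other arrays differed in these markers too. With DSS in WT, Fabp2, Alpi, Slc13a1 and Isx, 4 of 10 proximal markers, had at least 2-fold higher values, where 5.82% of all genes were, and 4 of 11 posterior Hox genes lower (Hoxb13, Hoxd10, Hoxd11 and Hoxd13), where 4.96% were. Between the KO DSS and WT DSS arrays, 3 of 10 such markers were lower (Fabp2, Slc13a1 and Isx), where 1.21% of all genes were, and 2 of 11 Hox genes higher (Hoxd10 and Hoxd13), where 4.22% were. The part of gut position in the DSS and genotype differences was not tested. For DSS in KO, the values of the 10 genes and the counts of gene lists are also given with the untreated WT array in place of the untreated KO array, a comparison that put 6.14% of all genes past 2-fold upward and 5.05% downward. It was uneven in gut position markers too. Of the 11 Hox genes, 4 were at least 2-fold lower there (Hoxb13, Hoxd10, Hoxd11 and Hoxd13) and 1 higher (Hoxa11). Of the 10 proximal markers, 1 was higher (Isx) and 1 lower (Fabp2).

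Transcripts of the stromelysins Mmp3 and Mmp10, of the collagenase Mmp13 and of the inhibitor Timp1 were higher with DSS in both genotypes. In KO colon, DSS values were at least 2-fold higher for 7 of the 10 genes (Mmp3, Mmp8, Mmp10, Mmp13, Mmp14, Timp1 and Timp3), where 10.8% of all genes were, and 1 was lower (Mmp7), where 6.68% were. In WT colon they were at least 2-fold higher for 4 of the 10 (Mmp3, Mmp10, Mmp13 and Timp1), where 5.82% of all genes were, and 0 were lower, where 4.96% were. The same 4 genes were thus higher in both genotypes, as were 2.48% of all genes. Against the untreated WT array, the KO DSS value was at least 2-fold higher for 6 of the 10, where 6.14% of all genes were. It was lower for 0, where 5.05% were. The median log2 difference over the 10 genes was 1.46 in KO and 0.64 in WT, beside 0.06 and -0.01 over all genes. Between single arrays, the median absolute log2 difference over all genes was 0.43 for DSS in KO and 0.32 for DSS in WT.

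**Figure D1:**
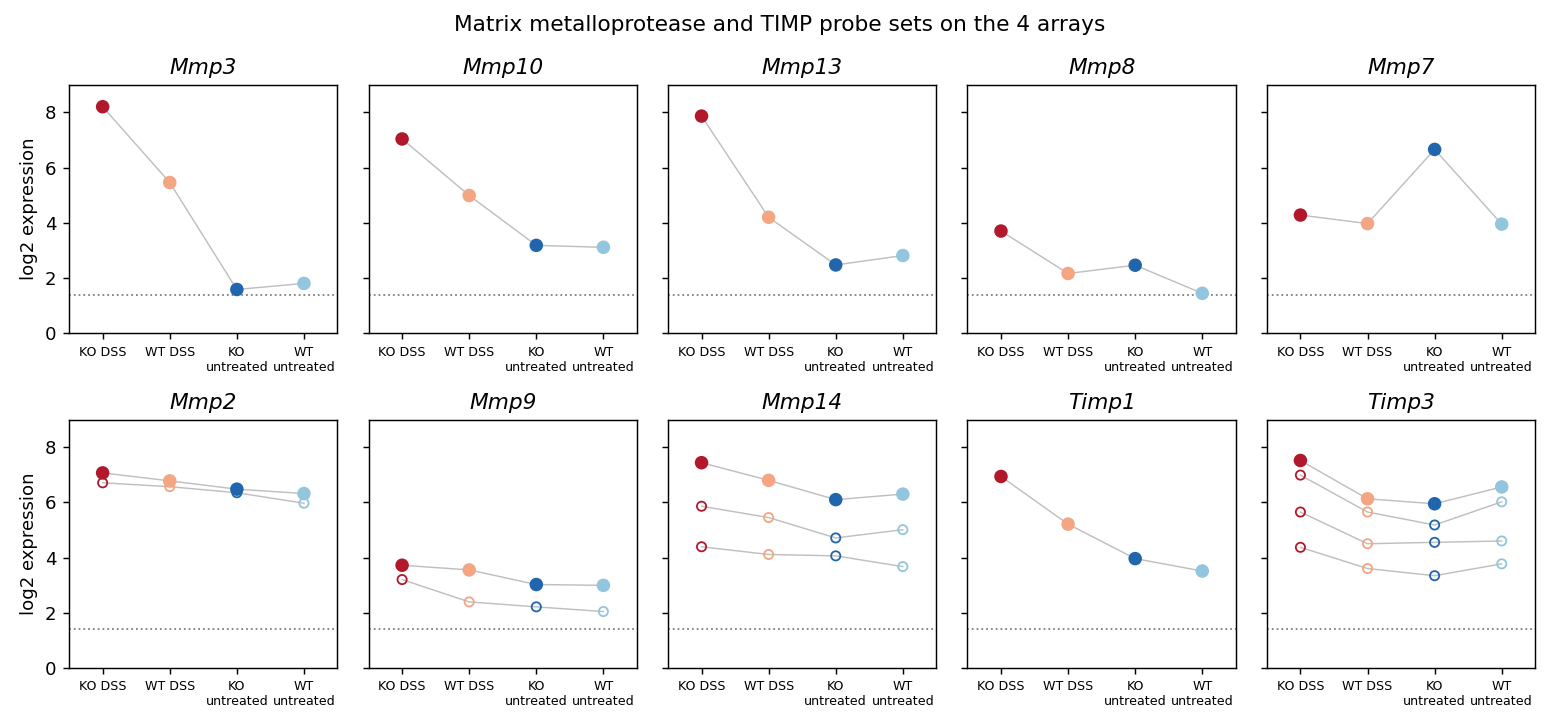
Log2 expression (vertical axis) of each probe set of the 10 genes on the KO DSS, WT DSS, untreated KO and untreated WT arrays (horizontal axis). Filled points are the probe set that represents the gene, open points its other probe sets, lines join values of 1 probe set, and the dotted line is the background limit of 1.39. The KO DSS array is the highest for 9 of the 10 genes, and the untreated KO array for Mmp7.

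Mmp3, stromelysin-1, a broad protease that cuts matrix proteins and activates other MMP zymogens, had log2 values of 8.21 in KO DSS, 5.46 in WT DSS, 1.58 in untreated KO and 1.80 in untreated WT colon. Both untreated values lay close to the background limit and both DSS values far above it. The DSS difference was 6.63 in KO, about 99.0-fold and rank 3 from the top of 12189 genes, and 3.66 in WT, 12.6-fold and rank 7. Because the untreated values were near background, these folds may be too small.

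Mmp10, stromelysin-2, the closest relative of Mmp3, had log2 values of 7.04 in KO DSS, 4.99 in WT DSS, 3.18 in untreated KO and 3.11 in untreated WT colon. The untreated arrays were nearly equal and both DSS arrays lay above them. DSS minus untreated was 3.86 in KO (14.5-fold, rank 34) and 1.88 in WT (3.68-fold, rank 86).

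Mmp13, the main interstitial collagenase of rodents, had log2 values of 7.87 in KO DSS, 4.20 in WT DSS, 2.47 in untreated KO and 2.81 in untreated WT colon. The KO DSS array stood well above the other 3. DSS values exceeded untreated ones by 5.40 in KO (42.2-fold, rank 11) and 1.39 in WT (2.62-fold, rank 284).

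Mmp8, the collagenase stored in neutrophil granules, was dim, with log2 values of 3.70 in KO DSS, 2.16 in WT DSS, 2.46 in untreated KO and 1.44 in untreated WT colon. It passed the filter on the KO DSS array alone. The DSS and untreated arrays overlapped, since the untreated KO value was above the WT DSS value. DSS minus untreated was 1.24 in KO and 0.72 in WT.

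Mmp7, matrilysin, an epithelial protease that in the mouse small intestine activates Paneth cell defensins, had another order. Its log2 values were 4.28 in KO DSS, 3.97 in WT DSS, 6.66 in untreated KO and 3.95 in untreated WT colon. The untreated KO array was high and the other 3 lay within 0.33 of each other. The DSS difference was -2.38 in KO, rank 114 from the bottom, and 0.02 in WT, and the value of KO DSS colon was 0.33 above that of untreated WT colon. Small intestine and proximal colon markers were high on the same array: the summed linear level of the 10 that passed the filter was 100.8 in KO DSS, 425 in WT DSS, 2997 in untreated KO and 183.3 in untreated WT colon, and their median difference between the untreated KO and WT arrays was 3.82. Of the 10, Slc10a2, Slc51a and Osr2 passed the filter through the untreated KO array alone, so a higher value there was built in for them. Of 12 Paneth cell markers, 6 had a probe set and 5 passed the filter. These 5 did not share the pattern as a list, with a median of -1.48 between the untreated arrays. Of those, 3 were at least 2-fold lower, Ang4 at -1.48, Itln1 at -3.48 and Pnliprp2 at -4.57, while Nupr1 was higher by 1.31 and Lyz1 differed by -0.43. Pnliprp2 passed the filter through the untreated WT array alone, so a higher value there was built in for it. The part of gut position in the Mmp7 value was not tested.

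The gelatinase genes differed little. Mmp2, gelatinase A, a stromal enzyme that cuts denatured and basement membrane collagen, had log2 values of 7.07 in KO DSS, 6.78 in WT DSS, 6.48 in untreated KO and 6.32 in untreated WT colon, a DSS difference of 0.59 in KO and 0.46 in WT. Its other probe set (1416136_at) gave 0.36 and 0.60. Mmp9, gelatinase B, which neutrophils and macrophages carry, had 3.72 in KO DSS, 3.55 in WT DSS, 3.02 in untreated KO and 2.99 in untreated WT colon. Its DSS difference was 0.70 in KO and 0.56 in WT, and its other probe set (1448291_at), which lay below every array's median, gave 0.99 and 0.35. For both genes the DSS arrays lay above the untreated ones in every probe set, by under 2-fold within each genotype. Against the untreated WT array the KO DSS value was 0.75 higher for Mmp2 and 0.73 for Mmp9, and the dim second Mmp9 probe set exceeded 2-fold there, at 1.16.

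Mmp14, the membrane-type MMP that activates the Mmp2 zymogen at the cell surface, had log2 values of 7.44 in KO DSS, 6.80 in WT DSS, 6.10 in untreated KO and 6.30 in untreated WT colon. The DSS difference was 1.34 in KO and 0.50 in WT. A second probe set (1416572_at) gave 1.15 and 0.44, and the third and dimmest (1440920_at) gave 0.33 and 0.44, so the wider difference in KO was seen in the first 2 probe sets and not in the last.

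The 2 inhibitor genes differed from each other. Timp1, the secreted inhibitor that is induced in wounds, had log2 values of 6.94 in KO DSS, 5.21 in WT DSS, 3.96 in untreated KO and 3.51 in untreated WT colon. Its DSS difference was 2.98 in KO (7.89-fold, rank 79) and 1.70 in WT (3.25-fold, rank 137), with both DSS arrays above both untreated arrays. Timp3, the matrix-bound inhibitor, had 7.52 in KO DSS, 6.13 in WT DSS, 5.95 in untreated KO and 6.56 in untreated WT colon. It was higher with DSS in KO, by 1.57, and lower in WT, at -0.43. All 4 Timp3 probe sets gave this pair of directions, from 1.03 to 1.81 in KO and from -0.43 to -0.10 in WT. Against the untreated WT array the KO DSS value was 0.96 higher.

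Both DSS arrays lay above both untreated arrays for 7 of the 10 genes, the exceptions being Mmp7, Mmp8 and Timp3, and for 26.4% of all genes. Of the 7, Mmp3, Mmp9, Mmp10 and Mmp13 were above the array median on both DSS arrays and on neither untreated array. For them this order was largely built into how they passed the filter. In an additive limma model of DSS and genotype, 0 of the 10 genes and 0 of 12189 passed an adjusted p of 0.05 for DSS. At an unadjusted p under 0.05, limma listed 5 of the 10 (Mmp3, Mmp10, Mmp13, Mmp14 and Timp1), all higher, and 11.8% of all genes, 7.65% higher and 4.15% lower. Among them, Mmp3, Mmp10 and Mmp13 had passed the filter through DSS arrays alone. The estimates with their standard errors were 5.14 ± 0.82 for Mmp3, 2.87 ± 0.57 for Mmp10, 3.40 ± 1.08 for Mmp13, 0.92 ± 0.32 for Mmp14 and 2.34 ± 0.41 for Timp1. Their limma adjusted p-values lay between 0.365 and 0.422. The model has 1 residual degree of freedom, and its error is the extent to which the DSS difference varied with genotype.

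**Figure D2:**
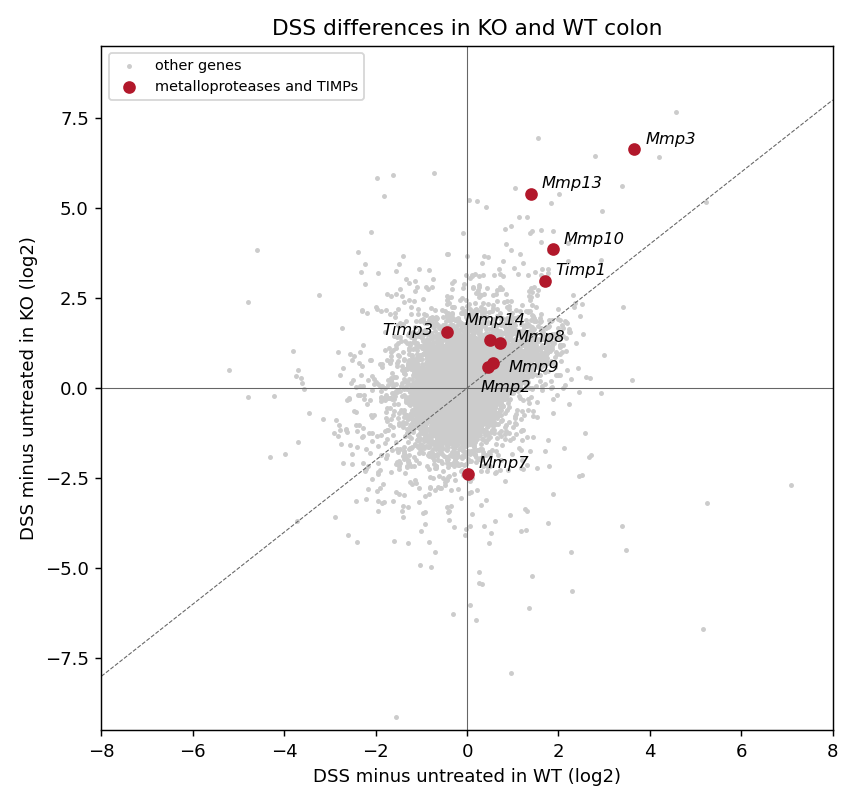
Log2 difference between DSS and untreated arrays in KO (vertical axis) against WT (horizontal axis) for 12189 genes, with the 10 metalloprotease and TIMP genes as large red points. The dashed line marks equal differences. Mmp3, Mmp10, Mmp13 and Timp1 lie at the upper right and above the line, Timp3 at 1.57 in KO and -0.43 in WT, and Mmp7 at -2.38 in KO and 0.02 in WT.

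The next comparison was between genotypes under DSS. The KO DSS array was higher than the WT DSS array for all 10 genes, and by at least 2-fold for 6 (Mmp3, Mmp8, Mmp10, Mmp13, Timp1 and Timp3), where 4.22% of all genes were. None was 2-fold lower, where 1.21% were. Mmp8 passed the filter through the KO DSS array alone, so a difference in that direction was built into its passing. Mmp13 differed by 3.67 (12.7-fold, rank 8 of 12189), Mmp3 by 2.75 (6.73-fold, rank 22), Mmp10 by 2.05 (4.14-fold), Timp1 by 1.73 (3.32-fold), Mmp8 by 1.54 (2.91-fold) and Timp3 by 1.39 (2.62-fold). The differences were 0.64 for Mmp14, 0.31 for Mmp7, 0.29 for Mmp2 and 0.17 for Mmp9. The median over the 10 genes was 1.46, beside -0.02 over all genes. This comparison and the DSS difference in KO use the same KO DSS array and are not independent, and with 1 mouse a group a genotype difference and a difference between 2 mice in the extent of injury cannot be told apart.

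Without DSS the genotypes differed little in most of these genes. Mmp7 was higher in the untreated KO colon by 2.71 (6.54-fold, rank 53) and Mmp8, close to background, by 1.02, and 3.43% of all genes were at least 2-fold higher. None of the 10 was 2-fold lower, where 5.98% of all genes were. The other 8 lay between -0.61 (Timp3) and 0.45 (Timp1). The 3 Mmp14 probe sets disagreed in sign here, at -0.20, -0.30 and 0.39. For the KO term over both treatments, limma gave 0 of the 10 genes and 0 of 12189 at an adjusted p of 0.05, and 0 of the 10 and 1.44% of all genes at an unadjusted p under 0.05, 0.673% of them higher and 0.771% lower. The unadjusted count for the KO term was 2 of the 10 (Mmp7 and Timp1) after quantile normalization or median centring, where 231 and 257 of 12189 genes were listed.

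**Figure D3:**
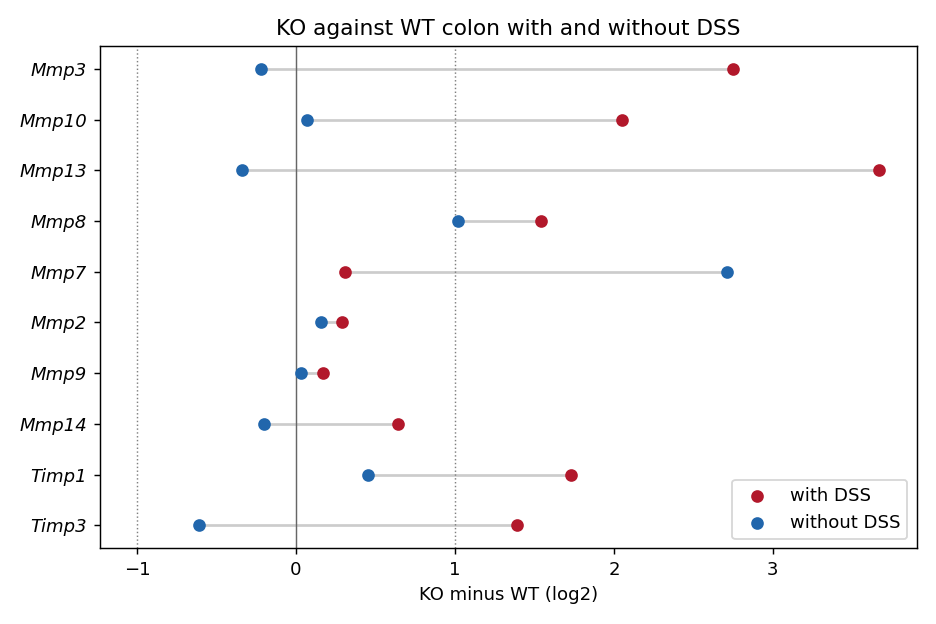
KO minus WT log2 difference (horizontal axis) of each gene with DSS (red) and without DSS (blue), with dotted lines at a 2-fold difference and grey bars joining the 2 values. The red point lies right of 0 for all 10 genes and left of the blue point for Mmp7 alone.

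The DSS difference was larger in KO than in WT for 9 of the 10 genes, and for 49.8% of all genes. The gap was 4.01 for Mmp13 (rank 46 of 12189), 2.97 for Mmp3 (rank 111), 2.00 for Timp3 (rank 365), 1.98 for Mmp10 (rank 377), 1.28 for Timp1, 0.84 for Mmp14, 0.52 for Mmp8, 0.14 for Mmp9, 0.13 for Mmp2 and -2.40 for Mmp7. The other Mmp2 probe set (1416136_at) gave a gap of -0.24, and the dimmest of Mmp14 (1440920_at) gave -0.11. The count of 9 was 8 as a mean over probe sets, and also without probe sets shared between transcripts. With 1 array in each group the gap has no test. Set against the untreated WT array in place of the untreated KO array, the KO DSS values were higher by 6.41 for Mmp3, 5.06 for Mmp13, 3.93 for Mmp10, 3.43 for Timp1, 2.26 for Mmp8 and 1.14 for Mmp14. The differences of Mmp3, Mmp10, Mmp13 and Timp1 thus stayed far above 2-fold without the untreated KO array, that of Mmp8 was larger, that of Timp3 fell just under 2-fold and that of Mmp7 changed sign.

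Along the cluster on chromosome 9 the order of genes is Mmp13, Mmp12, Mmp1b, Mmp3, Mmp1a, Mmp10, Mmp8, Mmp27, Mmp20 and Mmp7, in which Mmp27 was not analysed here. Genes with large DSS differences alternated with genes near background. Mmp12, the macrophage elastase gene between Mmp13 and Mmp3, had log2 values of 2.37 in KO DSS, 1.68 in WT DSS, 1.41 in untreated KO and 1.68 in untreated WT colon. Mmp1a and Mmp1b, rodent relatives of the human interstitial collagenase gene, and Mmp20, an enzyme of developing tooth enamel, were not above background on any array.

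**Figure D4:**
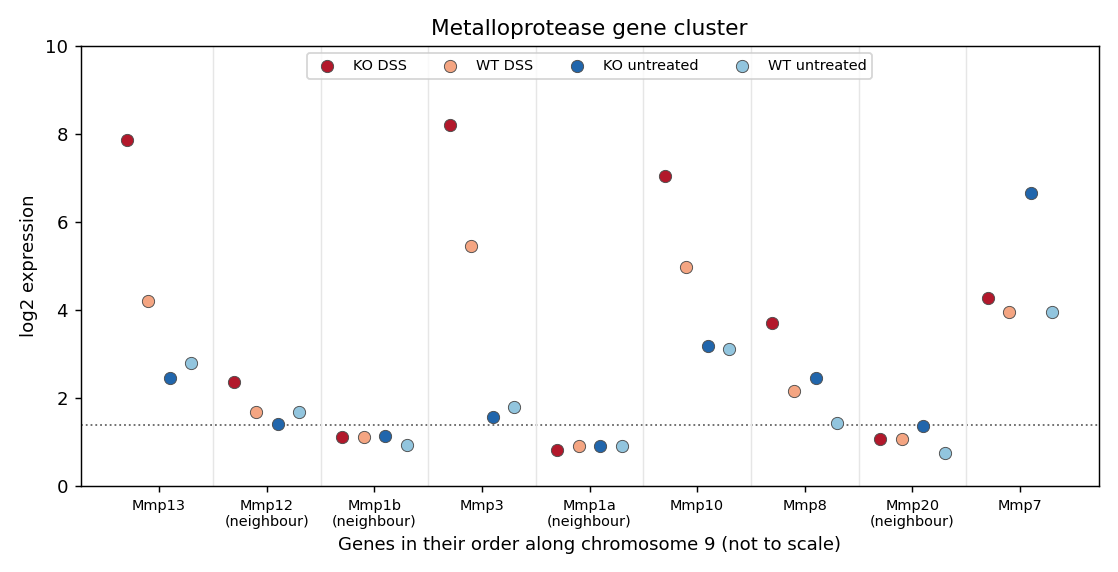
Log2 expression (vertical axis) of the metalloprotease genes of the chromosome 9 cluster with a probe set, in chromosomal order and not to scale (horizontal axis), on the 4 arrays. The dotted line is the background limit of 1.39. Mmp13, Mmp3 and Mmp10 are highest on the KO DSS array and next on the WT DSS array, Mmp1a, Mmp1b and Mmp20 lie below the line, and Mmp7 is highest on the untreated KO array.

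Of 17 further MMP and TIMP genes, 12 had a probe set and 4 passed the filter (Mmp17, Mmp23, Mmp24 and Timp2), and the probe set that represents each of the 4 stayed under 2-fold in every comparison between single arrays. Their median DSS difference was 0.07 in KO and -0.26 in WT. Timp2, an inhibitor that also helps Mmp14 activate Mmp2, had log2 values of 8.11 in KO DSS, 7.24 in WT DSS, 7.26 in untreated KO and 7.85 in untreated WT colon. Its DSS difference was 0.85 in KO and -0.61 in WT, the directions seen for Timp3. A second Timp2 probe set that passed the filter (1433662_s_at) gave 1.01 and -0.47, just past 2-fold in KO.

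Among genes that act on MMPs, Plaur and Plat were higher and Klk1 lower with DSS in both genotypes. Of 20 listed activators and cell-surface regulators, 18 had a probe set and 13 passed the filter. Among the 13, DSS values in KO were at least 2-fold higher for 4 (Plaur, Plat, Lcn2 and Prss22), where 10.8% of all genes were. They were lower for 3 (Klk1, Tfpi2 and Bsg), where 6.68% were. Against the untreated WT array 5 were higher (Cd44 as well), where 6.14% of all genes were. Klk1 alone was lower, where 5.05% were, Tfpi2 being at -0.53 and Bsg at -0.65. In WT 2 were higher (Plaur and Plat), where 5.82% of all genes were, and 1 lower (Klk1), where 4.96% were. The medians were 0.41 in KO and 0.14 in WT. Plaur, the urokinase receptor, was higher by 2.68 in KO and 1.42 in WT. Plat, the tissue plasminogen activator, was higher by 3.34 and 1.03, and Lcn2, a partner of Mmp9 in a secreted complex, by 3.64 and 0.46. Klk1, a kallikrein protease, differed by -2.65 in KO and -1.84 in WT. Lcn2 and Prss22 passed the filter through DSS arrays alone.

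Of 22 genes of fibrillar and basement membrane matrix, the substrates of MMPs, the DSS value in KO was at least 2-fold higher for 12, where 10.8% of all genes were, and lower for 0, with a median of 1.04. Against the untreated WT array 5 of the 22 were higher (Col4a1, Col4a2, Nid1, Dcn and Vcan), where 6.14% of all genes were, and 0 lower, with a median of 0.80. With DSS in WT, 0 were higher and 1 was lower (Lama2, at -1.13), where 5.82% and 4.96% of all genes were. The median was -0.06. Col4a1 and Col4a2, which encode the chains of basement membrane collagen, were higher by 2.00 and 1.91 in KO, by 1.19 and 1.39 when the untreated WT array was used, and differed by 0.00 and 0.23 in WT. The proteoglycan gene Vcan was higher by 2.00 in KO, by 2.15 with the untreated WT array, and by 0.66 in WT. Between the DSS arrays, 8 of the 22 were at least 2-fold higher in KO, where 4.22% of all genes were, and 0 lower, with a median of 0.80. Whether this list differs between the genotypes was not tested.

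Of 24 cytokine, growth factor and AP-1 genes listed as known inducers of MMP genes, 20 had a probe set and 17 passed the filter. DSS values were at least 2-fold higher for 10 of the 17 in KO, where 10.8% of all genes were. In WT they were for 5 of the 17 (Il1b, Lif, Fosl1, Hbegf and Ereg), where 5.82% were. None was 2-fold lower in KO or WT, where 6.68% and 4.96% of all genes were. The medians were 1.32 in KO and 0.05 in WT. On the KO DSS array, 8 of the 17 were higher than on the untreated WT array by at least 2-fold, where 6.14% of all genes were. The median over the 17 was 0.97. Il1b, an inflammatory cytokine, was higher by 3.31 in KO and 1.63 in WT. Ereg, an epidermal growth factor receptor ligand, was higher by 4.92 and 2.96, and Fosl1, an AP-1 subunit, by 1.85 and 1.62. Il11 was higher by 3.30 in KO and 0.70 in WT. Il6 had 6.28 on the KO DSS array and was not above background on the other 3, and it passed the filter through that array alone. Fosl1 passed the filter through DSS arrays alone, so that a difference in that direction was built in for it too. In limma's DSS term, 0 genes of the activator, substrate and inducer lists passed the adjusted threshold. At an unadjusted p under 0.05, where limma listed 11.8% of all genes, there were 4 of 13 activators and regulators (Plaur, Plat and Prss22 higher, Klk1 lower), 1 of 22 substrates (Vcan, higher), a smaller share than that of all genes, and 5 of 17 inducers (Il1b, Lif, Fosl1, Hbegf and Ereg, all higher).

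Neutrophil and fibroblast markers also differed between these arrays. Of 15 neutrophil markers, 12 had a probe set and 7 passed the filter, and their summed linear level was 833.3 in KO DSS, 150.4 in WT DSS, 79.1 in untreated KO and 49.8 in untreated WT colon. Of the 7, S100a8, S100a9 and Clec4d passed through DSS arrays alone, so that they had to differ in that direction. The other 4 summed to 152.1 in KO DSS, 56.2 in WT DSS, 66.1 in untreated KO and 37.5 in untreated WT colon. With DSS, 5 of the 7 were at least 2-fold higher in KO (S100a8, S100a9, Csf3r, Fpr2 and Clec4d), where 10.8% of all genes were. In WT 3 were higher (S100a8, S100a9 and Ltf), where 5.82% were. Set against untreated WT colon, 6 were higher in KO DSS colon (Ltf as well), where 6.14% of all genes were. Between the DSS arrays 4 were higher in KO (S100a8, S100a9, Fpr2 and Clec4d), where 4.22% were. Clec4d had passed the filter through the KO DSS array alone, so a difference in that direction was built in for it. Elane, the remaining marker, differed by -0.52 with DSS in KO, 0.24 in WT and 0.00 between the DSS arrays. The median over the list depended on the filter: it was 1.80 for DSS in KO and 2.20 for KO minus WT with DSS over the 7, and 0.60 and 0.38 with no filter. The granule genes Ngp, Camp and Mpo did not pass the filter.

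Of 15 fibroblast markers, 6 had a DSS value in KO that was at least 2-fold higher, where 10.8% of all genes were. Against the untreated WT array 4 were higher (Pdgfrb, Dcn, Grem1 and Loxl1), where 6.14% were. Fap went the other way by under 2-fold in both genotypes, at -0.88 in KO and -0.97 in WT. In WT 1 was higher (Grem1) and 1 lower (Cd34, at -1.36), close to the 5.82% and 4.96% of all genes. Their summed levels were 4681 in KO DSS, 2327 in WT DSS, 2337 in untreated KO and 2853 in untreated WT colon. Of 15 macrophage and monocyte markers, 13 had a probe set and 12 passed the filter. With DSS in KO, 1 of the 12 was higher (Cd14) and 2 lower (C1qa and C1qc), where 10.8% and 6.68% of all genes were. Against the untreated WT array 0 were 2-fold apart, where 6.14% of all genes were higher and 5.05% lower. With DSS in WT 0 were, where 5.82% and 4.96% of all genes were. Their medians were -0.12 in KO and -0.36 in WT. Adgre1 was lower by under 2-fold in both genotypes, at -0.95 in KO and -0.73 in WT. The part of cell numbers in the MMP and TIMP differences was not tested.

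The genes whose values over the 4 arrays were most like those of each MMP or TIMP gene were found by Euclidean distance, after each gene was centred on its own mean. Nearest to Mmp3 were S100a8 (distance 0.43), S100a9 (0.71) and Cxcl2 (0.91). Nearest to Mmp13 were Cemip (0.44), Chil3 (0.51) and Il33 (0.94), and nearest to Mmp10 were Igfbp5 (0.24), Il1b (0.49) and Hp (0.55). Timp1 was closest to Cers3 (0.23), which was not above background on either untreated array, and then to Hp (0.28) and Il1b (0.37). Mmp14 lay closest to Itga5 (0.06), Lpcat1 (0.07) and Serpinh1 (0.11), and Timp3 to Col5a2 (0.07), Itprip (0.10) and Rbms3 (0.12). Mmp7 lay closest to Chrnb4 (0.20), Tbx3 (0.22) and H2-T3 (0.28), each of which was highest on the untreated KO array. With 4 arrays a short distance describes these arrays only.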

How the data were processed

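Total RNA from distal colon was labelled as biotinylated cRNA and hybridised to Affymetrix arrays, per the labels' protocols. The authors' deposited values, 45101 probe sets on 4 arrays, were read as log2, since as natural logs they would reach 556821, and a 16-bit scanner stops at 65535. Summarization and normalization are not given in the sources used here, and the values were used as deposited, with array medians of 3.42 to 3.46. Probe sets were named through the platform annotation, with symbols updated by gene number through RefSeq (GRCm38.p6). No source used here gives the annotation's build, so only promoter coordinates, which belong to RefSeq, are printed. The filter was the array's median over non-control probe sets on at least 1 array, and a gene was represented by its probe set with the highest mean.

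Differences between single arrays were called at 2-fold, with no test. DSS and KO terms were fitted over all 12189 genes with limma 3.58.1 in R 4.3.3 (lmFit, then eBayes with a trend), as two-sided tests adjusted by Benjamini-Hochberg, with the other factor as covariate, 1 residual and 2.68 prior degrees of freedom and a threshold of 0.05. The code was tested on simulated data. The number of arrays limits the precision.

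The members and the 13 gene lists were chosen with earlier results of these data known. Named beside them were up to 4 genes of a list with the largest absolute mean DSS difference, every gene of a count of 5 or fewer, and the 3 nearest profiles of a member. Mmp12, Mmp19, Timp4 and the granule genes Ngp, Camp and Mpo were singled out after their values were seen. Alternatives were median centring or quantile normalization of the arrays, the 75th percentile or nothing as the filter, a mean over probe sets, dropping probe sets shared between transcripts, a 3-fold call, the untreated array of the other genotype, limma without covariate or trend, and leaving out each array. Their use on gene lists was added after seeing the data. Python 3.11.15, numpy 2.4.6, pandas 2.3.3 and matplotlib 3.10.9 were used.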

Additional observations from a re-analysis of the deposited data

Results flagged for a closer look

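Genes whose difference had opposite signs in the 2 genotypes, or with and without DSS, are listed here, and with 1 array on each side none of these contrasts was tested. The DSS difference of Mmp7 was -2.38 in KO and 0.02 in WT, a gap of -2.40. The WT value was too close to 0 to give a direction, and it was -0.01 after median centring. The DSS difference of Timp3 was 1.57 in KO and -0.43 in WT, a gap of 2.00. The KO minus WT difference of Timp3 was 1.39 with DSS and -0.61 without, the same gap of 2.00 read the other way. For Mmp13 it was 3.67 with DSS and -0.34 without, a gap of 4.01, for Mmp3 2.75 and -0.22, a gap of 2.97, and for Mmp14 0.64 and -0.20, a gap of 0.84. The opposite values of Mmp13, Mmp3 and Mmp14 without DSS lay within the median absolute difference of 0.32 that all genes showed between those arrays, except that of Mmp13, at -0.34.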

How the results depend on the processing

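Of the counts of the 10 genes under the alternatives, 84 stayed within 1.5 times the reported count and 6 did not. With a 3-fold call, 4 of the 10 genes in place of 7 were higher with DSS in KO. With the untreated array of the other genotype, 0 genes in place of 1 were lower with DSS in KO, since Mmp7 then differed by 0.33 in place of -2.38, and 1 in place of 0 was lower in WT (Mmp7, at -2.69). Without DSS, 1 gene in place of 2 was higher in KO under quantile normalization, under the 75th percentile filter, which left out Mmp8 and Mmp9, and with a 3-fold call. The differences of 3 single genes dropped below 2-fold under 1 alternative each: Mmp14 with DSS in KO as a mean over probe sets (0.94), Timp3 with DSS in KO against the untreated WT array (0.96) and Mmp8 between the untreated arrays after quantile normalization (0.91). No other difference of 2-fold or more of the 10 genes changed sign under the alternatives run, and no list median of that size did, but some moved far. The neutrophil median for KO minus WT with DSS was 2.20 as reported, 0.38 with no filter and 0.98 without probe sets shared between transcripts. For DSS in KO it was 1.80, and lay between 0.60 with no filter and 6.41 with the 75th percentile filter. The Paneth median between the untreated arrays was -1.48, and lay between -0.96 with no filter and -3.48 without shared probe sets. Median centring moved the median of all genes for DSS in KO to -0.07, against 0.06 as deposited. In limma, 0 of the 10 genes passed the adjusted threshold for either term under any alternative, and leaving out each array, which needed the covariate to be dropped as well, gave from 0 to 0. Such a fit has 1 array on 1 side of each term and does not account for the other factor, so its unadjusted counts are not given. The unadjusted count of 5 for DSS did not hold in every such fit. For the KO term the unadjusted count of 0 was 2 after quantile normalization or median centring (Mmp7 and Timp1), where 231 and 257 of 12189 genes were listed. It was 1 (Mmp8) with no filter, where 296 of 18193 genes were listed, and without a trend, where 184 of 12189 were. The cause was not tested. No paired analysis was possible because each group has 1 array and the labels give no replicate numbers. With no replicate array, the spread between mice is unknown, and values near 1.39 are limited by background.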

Other observations

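Some family probe sets that did not pass the filter, or that did not represent their gene, differed on 1 array. Of the 2 Timp4 probe sets, 1423405_at had log2 values of 1.49 in KO DSS, 1.36 in WT DSS, 1.37 in untreated KO and 3.18 in untreated WT colon, while 1450974_at lay between 2.64 and 2.87 on all 4. Of the 2 Mmp19 probe sets, 1421977_at had 3.04 in KO DSS, 1.77 in WT DSS, 1.51 in untreated KO and 1.83 in untreated WT colon, and 1421976_at was also highest in KO DSS colon. Both genes lay below their array's median on every array.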
